A study of Mus musculus with 24 samples.

Results

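The insulin signalling genes described here are the 9 genes Insr, Irs1, Irs2, Pik3r1, Akt1, Akt2, Tbc1d1, Tbc1d4 and Inppl1, out of 55416 genes in a table of RNA sequencing counts from mouse gastrocnemius muscle. They were chosen by name, as the receptor, adaptors, kinases and downstream regulators that link insulin to glucose uptake, and all 9 were among the 16408 genes that passed the filter on low counts. The study housed C57BL/6J mice (the strain is spelled C56BL6J in the sample labels), bought at 8 weeks of age, for 8 weeks in a small mouse cage (SMC), a narrow box that restricts spontaneous movement, or left them ambulatory as sham. Both housings were sequenced in both sexes, which gave 4 groups of 6 libraries, with 1 library taken as 1 mouse. All mice were wild type, were fasted for 4 hours and were anaesthetised with ketamine and xylazine before the tissue was taken. The cage arrangement of the sequenced mice was not given in the sources used here.

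Insulin binds its receptor on the muscle fibre and switches on the receptor's tyrosine kinase. The receptor phosphorylates the insulin receptor substrates, which recruit phosphoinositide 3-kinase (PI3K), and the lipid made by PI3K brings AKT kinases to the membrane. AKT phosphorylates TBC1D1 and TBC1D4, which otherwise hold GLUT4 glucose transporters inside the cell. Most of this control is by phosphorylation and movement of proteins, and the values below are transcript levels only.

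Total counts per library lay between 23026627 and 36880413, and each member had at least 726 counts in every library. Levels are given as CPM, the count of a gene scaled to a common library size after adjustment by the trimmed mean of M values (TMM). All 8 skeletal muscle genes checked, among them Acta1 and Ckm, were detected, with a summed level of 149418 to 380404 CPM, and 24 of 24 libraries matched the sex in their label. Female sham 8 had the lowest summed skeletal muscle level of the 24 libraries. It also had the highest summed levels of macrophage genes (87.7 CPM) and red blood cell genes (1844 CPM). Male sham 1 was next in each, at 150572 CPM for skeletal muscle, 69.8 for macrophage and 1569 CPM for red blood cell genes. Every SMC library had at least 271413 CPM of skeletal muscle genes, against medians of 230978 in male sham and 266087 CPM in female sham. The part of this difference in the values of the members was not tested. A pair of other sham libraries stood apart in slow fibre genes. Male sham 4 and female sham 7 had 86.4 and 72.8 CPM summed over the 9 slow fibre genes (Myh7, Myl2 and others), against 1132 to 3094 CPM in the other 10 sham libraries and 690 to 4440 CPM in the SMC libraries. These 2 libraries also held the lowest summed endothelial and fibroblast levels of their groups, and printed SMC against sham values of the members that change by more than 1.5 times without them are given both ways, with sign changes of values near 0 in the closing section.

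Per kilobase of exon, an approximate scale for comparing levels between genes, Akt2 was the highest member at 26.4 ± 3.68 CPM per kilobase (SD, 24 libraries). Tbc1d1 followed at 20.6 ± 9.95, Inppl1 at 17.8 ± 2.85, Irs1 at 17.4 ± 4.45 and Irs2 at 15.6 ± 5.596 CPM per kilobase. Insr stood at 11.98 ± 0.983, Akt1 at 10.6 ± 1.03, Tbc1d4 at 10.3 ± 2.04 and Pik3r1 at 7.77 ± 2.55 CPM per kilobase. The order depends on lengths taken as the union of annotated exons, which can include exons not used in these muscles. Neighbours in it overlapped throughout. Akt2 exceeded Tbc1d1 in 21 of 24 libraries, whereas Inppl1 exceeded Irs1 in 10 and Akt1 exceeded Tbc1d4 in 13. The members also differed in how much they varied between mice. The coefficient of variation over the 24 libraries was 8.20% for Insr, the lowest, 9.67% for Akt1 and 48.3% for Tbc1d1, the highest. That measure includes differences between groups, and for Tbc1d1 the value of 416 CPM in female sham 7. Averaged within the groups, the coefficient of variation was highest for Irs2 (34.8%), then Tbc1d1 (31.0%), and lowest for Insr (8.30%).

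**Figure D1:**
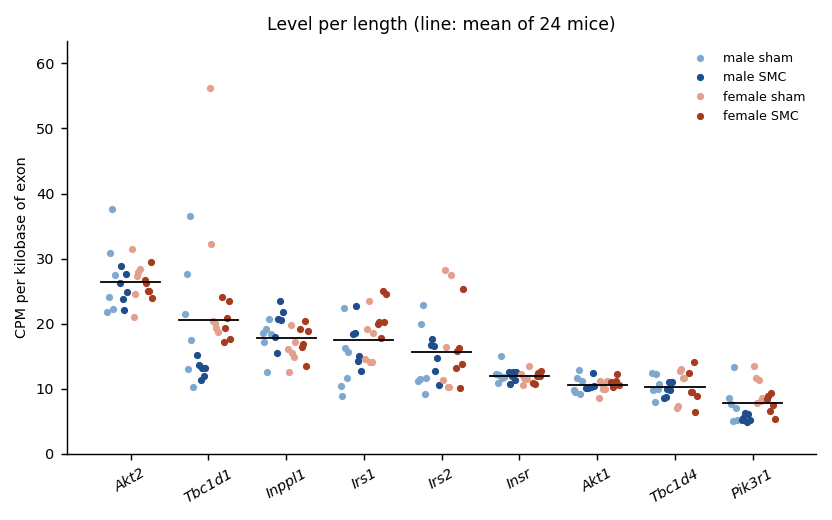
Level of each insulin signalling gene in CPM per kilobase of exon (y axis, linear), 1 point per mouse, coloured by group, with a line at the mean of 24 mice. Akt2 has the highest mean (26.4) and Pik3r1 the lowest (7.77), and Tbc1d1 is the most widely spread gene.

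Insr, the insulin receptor, had nearly the same level in every group. It lay between 149 and 207 CPM in male sham mice (median 164) and between 148 and 174 CPM in male SMC mice (median 168). Female sham mice ranged from 145 to 186 CPM (median 160) and female SMC mice from 148 to 176 CPM (median 164). The groups overlapped almost completely, and the 1 library that stood out was male sham 4, at 207 CPM. With SMC the log2 fold change was -0.04 (95% confidence interval -0.19 to 0.12, FDR = 0.910, edgeR) in males and -0.01 (-0.17 to 0.15, FDR = 0.974) in females. As an average of both sexes it was -0.02 (-0.13 to 0.09), the narrowest interval among the members.

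Irs1 and Irs2 encode the main insulin receptor substrates of muscle, the docking proteins that carry the signal from the receptor to PI3K. Irs1 ranged from 81.3 to 204 CPM in male sham mice (median 124) and from 116 to 207 CPM in male SMC mice (median 153). Its range in females was 128 to 215 CPM in sham mice (median 151) and from 163 to 229 CPM in SMC mice (median 185). The SMC medians were higher in both sexes, but the groups overlapped: 1 of 6 male and 2 of 6 female SMC mice lay above all sham mice of their sex. It differed by a log2 fold change of 0.26 (SE 0.184, FDR = 0.666) in males and 0.30 (SE 0.184, FDR = 0.544) in females. The male value was 0.15 without male sham 2 or male SMC 15 and 0.43 without male sham 3. The value averaged over both was 0.28 (SE 0.130, 95% interval 0.01 to 0.55), with an unadjusted p of 0.0426 and FDR = 0.264, so Irs1 did not pass the threshold of 0.05.

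Irs2 varied more between mice than its partner did. It ranged from 57.6 to 145 CPM in male sham mice (median 73.2), from 66.7 to 112 CPM in male SMC mice (median 98.9), from 64.5 to 179 CPM in female sham mice (median 87.8) and from 64.3 to 160 CPM in female SMC mice (median 93.7). No group stood apart. In log2 terms SMC minus sham was 0.04 (95% interval -0.52 to 0.61) in males and -0.14 (-0.70 to 0.42) in females, intervals that span changes in either direction. Without male sham 4 and female sham 7 these values were 0.21 and -0.23, and single left-out libraries moved them between -0.064 and 0.21 in males and between -0.32 and 0.052 in females. The ratio of Irs1 to Irs2 counts within a mouse had medians of 1.49 in male sham, 1.61 in male SMC, 1.91 in female sham and 1.99 in female SMC mice. Its log2 difference between SMC and sham was 0.19 in males (exact permutation p = 0.290) and 0.37 in females (exact permutation p = 0.221), both with an adjusted p of 0.679 over the 9 ratio tests made.

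Irs1 and Irs2 varied together. After group means were removed, their log2 CPM had r = 0.60 over 24 libraries, and r = 0.57 without male sham 4 and female sham 7. This is a description over libraries that share their normalization. The promoters of both genes are shown because of this shared variation. The letters are the 250 bases before the RefSeq start on build GRCm38.p6, 5′ to 3′ on the strand of the gene, at chr1:82291440-82291689 (minus strand) for Irs1 and chr8:11008930-11009179 (minus strand) for Irs2. Capitals mark CAAAACA (the core of the insulin response element, read here as TGTTTTG on the opposite strand) and CACGTG (an E-box).
Irs1: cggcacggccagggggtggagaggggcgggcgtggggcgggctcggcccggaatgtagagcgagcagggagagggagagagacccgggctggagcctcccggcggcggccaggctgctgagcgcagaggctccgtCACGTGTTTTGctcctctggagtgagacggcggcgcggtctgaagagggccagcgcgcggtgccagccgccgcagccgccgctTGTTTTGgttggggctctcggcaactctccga
Irs2: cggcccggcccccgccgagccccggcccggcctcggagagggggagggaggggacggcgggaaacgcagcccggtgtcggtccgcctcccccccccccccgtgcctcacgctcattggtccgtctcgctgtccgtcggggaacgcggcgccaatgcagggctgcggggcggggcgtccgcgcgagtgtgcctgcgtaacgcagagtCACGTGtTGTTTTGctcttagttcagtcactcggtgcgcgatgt
Both windows hold the E-box and the CAAAACA core close together. In Irs1 the E-box began 115 bases before the start and shared its last letters with a TGTTTTG that began 111 bases before the start, and another TGTTTTG began 32 bases before it. In Irs2 the E-box began 44 and the TGTTTTG 37 bases before the start. Among 32851 RefSeq promoters of the same length, 5.56% held CAAAACA, 6.02% held CACGTG and 0.295% held both, with both strands searched. The remaining motifs searched were the FoxO core GTAAACA, in 3.17% of promoters, and the cAMP response element TGACGTCA, in 1.55%. RefSeq listed 15 start sites for 8 members (Insr had no entry), and the only further match was the FoxO core before 1 of the start sites of Akt1. A match is a match of letters only.

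Pik3r1, the gene of the PI3K regulatory subunits that bind the phosphorylated substrates, had the smallest edgeR p-value of the members with SMC in males, in females and averaged over the sexes. It ranged from 50.6 to 134 CPM in male sham mice (median 74.4) and from 48.6 to 62.95 CPM in male SMC mice (median 54.1). Female sham mice ranged from 78.7 to 135 CPM (median 101) and female SMC mice from 53.6 to 93.6 CPM (median 80.0). All 6 male SMC mice lay below the male sham median, although the lowest sham mice reached the same levels, and 3 of 6 female SMC mice lay below every female sham mouse. The highest values of both sham groups came from male sham 4 (134 CPM) and female sham 7 (135 CPM).

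The log2 fold change of Pik3r1 with SMC was -0.50 (SE 0.189, FDR = 0.316) in males and -0.41 (SE 0.188, FDR = 0.374) in females. The average of both sexes was -0.45 (SE 0.133, 95% interval -0.73 to -0.18), with an unadjusted p of 0.00241 and FDR = 0.0669, which missed the threshold. DESeq2 on the same counts gave an adjusted p of 0.0270 for this comparison. Without male sham 4 and female sham 7 the averaged value was -0.30 (edgeR FDR = 0.111), that in males -0.29 (FDR = 0.432) and that in females -0.30 (FDR = 0.313). Male sham 4 alone took the male value to -0.29 when left out (FDR = 0.510). For the average of both sexes, leaving out male sham 3, male sham 6 or female sham 9 brought the edgeR FDR under the threshold. It was then 0.0350, 0.0393 and 0.0482. In males no single left-out library did so, and the lowest FDR was 0.191.

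Akt1 and Akt2 encode the kinases that relay the signal, and Akt2 is the form best known for glucose uptake in muscle. Akt1 ranged from 37.4 to 52.7 CPM in male sham (median 43.0), 41.2 to 50.9 CPM in male SMC (median 42.0), 35.4 to 45.9 CPM in female sham (median 42.3) and 42.1 to 50.4 CPM in female SMC mice (median 44.5). Akt2 ranged from 155 to 268 CPM in male sham (median 184), 157 to 206 CPM in male SMC (median 182), 149 to 225 CPM in female sham (median 197) and 170 to 210 CPM in female SMC mice (median 183). Neither gene separated any groups. The sham extremes of Akt2 again included male sham 4 and female sham 7, the highest of their groups.

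With SMC the log2 fold change of Akt1 was -0.01 (95% interval -0.19 to 0.16) in males and 0.10 (-0.07 to 0.27) in females, where it was 0.062 without male sham 4 and female sham 7. That of Akt2 was -0.10 (-0.34 to 0.14) in males and -0.04 (-0.28 to 0.20) in females. In the averaged comparison the intervals ran from -0.08 to 0.17 for Akt1 and from -0.24 to 0.10 for Akt2. The ratio of Akt1 to Akt2 counts had medians of 0.230 in male sham, 0.245 in male SMC, 0.217 in female sham and 0.242 in female SMC mice. Its log2 difference with SMC was 0.07 in males (exact permutation p = 0.413) and 0.14 in females (exact permutation p = 0.374), each with an adjusted p of 0.679.

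Tbc1d1 and Tbc1d4 encode the Rab GTPase-activating proteins through which insulin and contraction release GLUT4 vesicles. Tbc1d1 ranged from 76.2 to 270 CPM in male sham mice (median 144) and from 84.0 to 112 CPM in male SMC mice (median 97.4). Female sham mice ranged from 139 to 416 CPM (median 150.0) and female SMC mice from 128 to 179 CPM (median 149). The male SMC mice were tightly grouped at the low end of a broad sham range, whereas the female medians were nearly equal. Male sham 4 (270 CPM) and female sham 7 (416 CPM) were the highest of all 24 mice.

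The log2 fold change of Tbc1d1 with SMC was -0.69 (SE 0.263, FDR = 0.322) in males and -0.45 (SE 0.262, FDR = 0.516) in females. The average was -0.57 (SE 0.186, 95% interval -0.95 to -0.18), with an unadjusted p of 0.00541 and FDR = 0.102 by edgeR, and DESeq2 gave an adjusted p of 0.0453. Without male sham 4 and female sham 7 it was -0.47 (FDR = 0.322) in males, -0.11 (FDR = 0.816) in females and -0.29 (FDR = 0.212) averaged. The female value was also -0.11 (FDR = 0.868) with female sham 7 alone left out. The mean of the other 5 male sham mice was 133 ± 50.9 CPM (SD) and that of the other 5 female sham mice was 164 ± 42.0 CPM, against 96.7 ± 9.88 and 151 ± 21.6 CPM in the 6 male and 6 female SMC mice. The plot against slow fibre genes shows the same 2 libraries at the far left and at the top. The part that fibre makeup takes in the values of Tbc1d1 and Pik3r1 was not tested, and in whole muscle fewer cells of a type and less RNA per cell cannot be told apart.

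**Figure D2:**
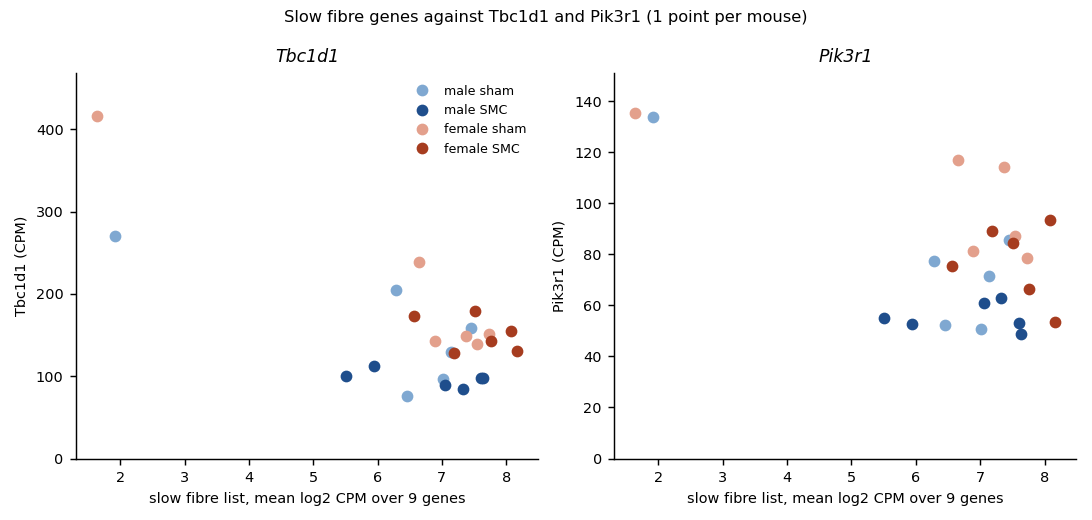
Tbc1d1 (left) and Pik3r1 (right) in CPM (y axes) against the mean log2 CPM of 9 slow fibre genes (x axes), 1 point per mouse, coloured by group. Male sham 4 and female sham 7 lie apart at the left, with Tbc1d1 at 270 and 416 CPM and Pik3r1 at 134 and 135 CPM.

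Tbc1d4 ranged from 61.2 to 95.4 CPM in male sham (median 79.0), 65.6 to 85.2 CPM in male SMC (median 75.7), 53.4 to 100.2 CPM in female sham (median 89.0) and 49.8 to 109 CPM in female SMC mice (median 72.7). Its values did not follow those of Tbc1d1: female sham 7, the highest for Tbc1d1, was the lowest female sham mouse for Tbc1d4. The log2 fold change with SMC was -0.09 (95% interval -0.44 to 0.26) in males and -0.06 (-0.41 to 0.29) in females, and these became -0.051 and -0.15 when male sham 4 and female sham 7 were left out. The ratio of Tbc1d1 to Tbc1d4 counts had medians of 1.68 in male sham, 1.163 in male SMC, 1.58 in female sham and 1.91 in female SMC mice, with a single value of 7.79 in female sham 7. Its log2 difference with SMC was -0.48 in males (exact permutation p = 0.108, adjusted p = 0.679) and -0.27 in females (exact permutation p = 0.639, adjusted p = 0.760). The female difference became 0.07 without female sham 7.

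Tbc1d1 and Pik3r1 varied together more closely than any other pair of members, with r = 0.75 over 24 libraries after group means were removed. Without male sham 4 and female sham 7 their r was 0.61, and Tbc1d4 and Inppl1 had the highest, at 0.66. Their promoters are shown for comparison with those of Irs1 and Irs2. They are the 250 bases before the start listed in RefSeq as the most upstream of 2, on GRCm38.p6, at chr5:64160010-64160259 (plus strand) and chr13:101768218-101768467 (minus strand).
Tbc1d1: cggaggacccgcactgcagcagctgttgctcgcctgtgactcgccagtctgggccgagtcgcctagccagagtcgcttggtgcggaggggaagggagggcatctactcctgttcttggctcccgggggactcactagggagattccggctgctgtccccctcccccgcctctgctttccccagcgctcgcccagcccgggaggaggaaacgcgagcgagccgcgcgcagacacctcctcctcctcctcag
Pik3r1: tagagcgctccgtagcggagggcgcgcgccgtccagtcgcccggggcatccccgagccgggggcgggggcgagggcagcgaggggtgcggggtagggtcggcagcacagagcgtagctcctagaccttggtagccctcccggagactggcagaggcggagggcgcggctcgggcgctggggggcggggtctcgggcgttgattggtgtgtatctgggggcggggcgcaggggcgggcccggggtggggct
None of the 4 motifs searched was found in these windows, and so no letters are in capitals. All 4 printed windows were rich in G and C, at 72.4% for Irs1, 72.8% for Irs2, 68.4% for Tbc1d1 and 76.4% for Pik3r1, against a median of 52.4% over all promoters. The windows of the other listed starts, not printed, held 73.6% for Tbc1d1 and 42.4% for Pik3r1. Which start is used in these muscles was not tested.

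Inppl1 encodes SHIP2, a lipid phosphatase that removes the PI3K product and so opposes AKT. It ranged from 80.2 to 133 CPM in male sham mice (median 119) and from 99.3 to 150.0 CPM in male SMC mice (median 132). Female sham mice ranged from 80.2 to 126 CPM (median 101) and female SMC mice from 86.7 to 131 CPM (median 114). SMC medians were higher in both sexes, and 2 of 6 male and 1 of 6 female SMC mice lay above all sham mice of their sex. SMC minus sham was 0.17 on the log2 scale (95% interval -0.08 to 0.42, FDR = 0.676) in males, 0.13 (-0.12 to 0.38, FDR = 0.724) in females and 0.15 (-0.03 to 0.33, FDR = 0.384) averaged over the sexes. The male value was 0.075 (FDR = 0.853) without male sham 4, and without female sham 8 the female value was 0.068 (FDR = 0.892), while single left-out libraries otherwise gave up to 0.23 and 0.20.

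**Figure D3:**
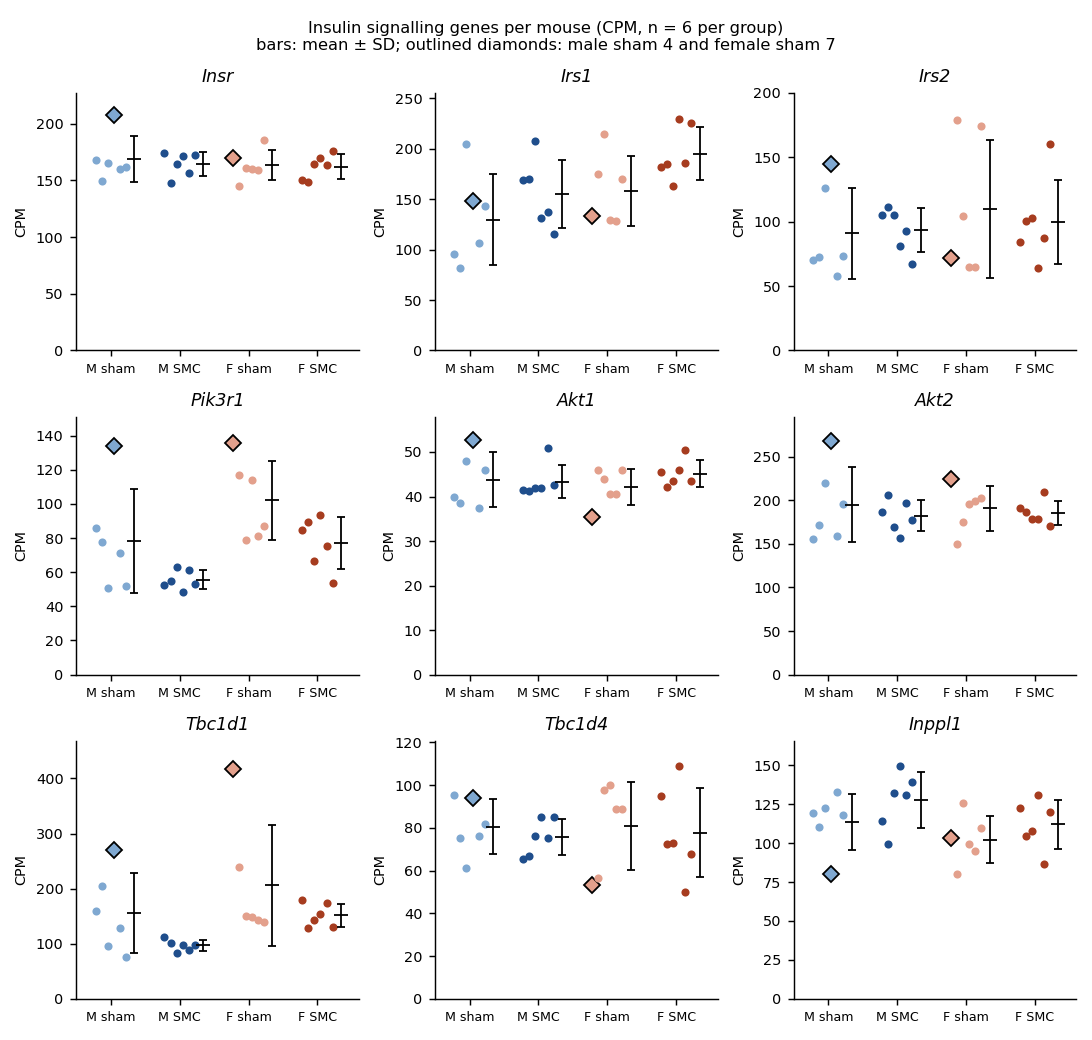
CPM of each insulin signalling gene (y axes, from 0) in the 4 groups (x axes, M male, F female), 1 point per mouse, with mean ± SD beside the 6 points of each group and outlined diamonds for male sham 4 and female sham 7. SMC and sham mice of the same sex overlap for every gene, and the diamonds are the highest sham points for Pik3r1, Akt2 and Tbc1d1.

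By edgeR at an FDR under 0.05, 0 of the 9 members were called with SMC in males, where 0% of all tested genes were called, and 0 of 9 in females, where 0.341% were. In the comparison averaged over the sexes 0 of 9 were called against 2.36% of all genes. At an unadjusted p under 0.05, 2 members were lower in males (Pik3r1 and Tbc1d1), against 11% of all genes in either direction and 5.59% lower. In females 1 was lower (Pik3r1), against 12.5% and 7.47%. In the averaged comparison 2 were lower (Pik3r1 and Tbc1d1), against 9.65% of all genes, and 1 was higher (Irs1), against 7.9%, with 17.5% in either direction. DESeq2 called 0 of 9 in males (1.01% of all genes), 0 of 9 in females (1.64%) and 2 of 9 averaged over the sexes (4.85%). SMC and sham mice of the same sex overlapped for all 9 members, against 0.902% of all genes without overlap in males and 1.03% in females. The median log2 fold change of the members was -0.04 in males, -0.04 in females and -0.05 averaged, and that over all tested genes was -0.00441, -0.0110 and -0.00886. Tested on simulated counts for the male comparison, the same fit called 72% of genes changed by 1 log2 unit and 35% of those changed by 0.5. The simulation changed 100 genes of each size, and no simulated library was set apart as male sham 4 was. With 0 genes called in the actual male comparison, a member could need a smaller p-value to pass there. The simulated shares can therefore overstate what that comparison could detect.

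Both sexes were housed both ways, so that whether the response to SMC differed between them could be tested directly. By edgeR 0 of 9 members were called, against 0% of all genes, and 0 of 9 had an unadjusted p under 0.05, against 5.13%. DESeq2 called 0 of 9, against 0.00611% of all genes. The male response minus the female response was -0.24 (95% interval -1.01 to 0.52) for Tbc1d1, -0.09 (-0.64 to 0.46) for Pik3r1, -0.04 (-0.58 to 0.49) for Irs1 and 0.04 (-0.32 to 0.39) for Inppl1, on the log2 scale. For Insr, Irs2, Akt1, Akt2 and Tbc1d4 its size was at most 0.18, the value of Irs2. Without male sham 4 and female sham 7 the male and female responses of Irs2, given above, lay further apart. The intervals of this comparison include sizeable differences in either direction, and the widest was that of Irs2, at -0.61 to 0.98. The value of Tbc1d1 rested on single sham libraries: it was -0.58 (FDR = 0.761) without female sham 7 and -0.031 (FDR = 0.996) without male sham 4, and -0.36 (FDR = 0.799) without both.

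**Figure D4:**
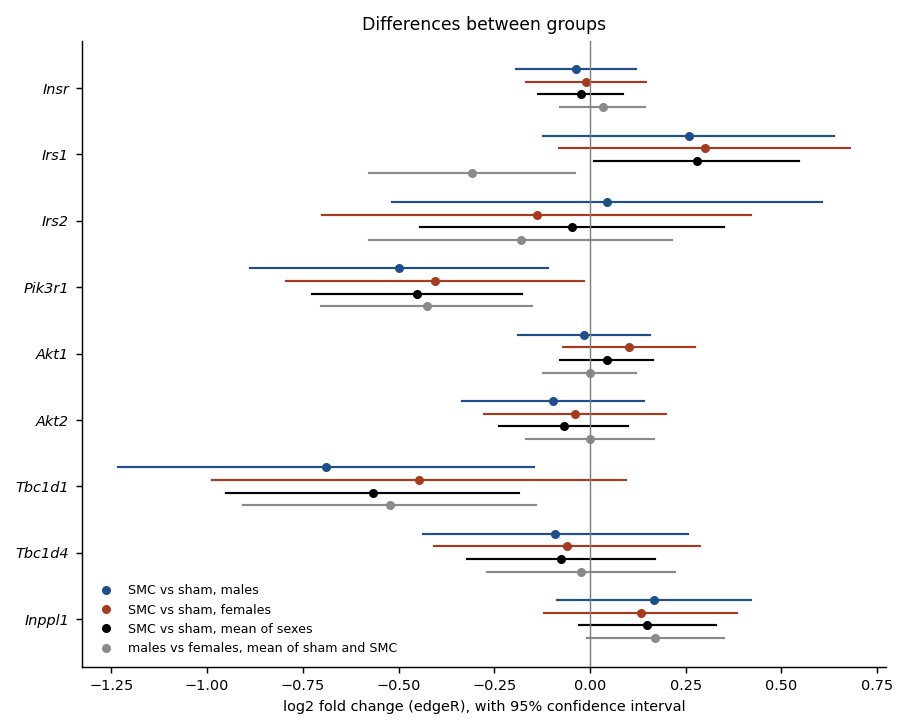
Log2 fold changes (points) with 95% confidence intervals (lines) from edgeR for the 9 genes (y axis): SMC against sham in males, in females and averaged over the sexes, and males against females averaged over sham and SMC. Intervals of Pik3r1 lie below 0 in all 4 comparisons, those of Tbc1d1 in 3, and no gene passed an FDR of 0.05.

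Between the sexes, 0 of 9 members were called in sham mice, where 1.97% of all genes were, and 0 of 9 averaged over sham and SMC, where 4.93% were. Sham males and sham females overlapped for all 9 members, against 1.13% of all genes without overlap, and 0 of 9 had an unadjusted p under 0.05 there, against 15.5%. Between SMC males and SMC females 1 of 9 did not overlap, against 2.08% of all genes: Tbc1d1 lay between 84.0 and 112 CPM in the males and between 128 and 179 CPM in the females, a difference given by its ranges only. In the averaged comparison 3 members had an unadjusted p under 0.05 and were lower in males, against 10.8% of all genes lower and 19.3% in either direction. The log2 difference of males minus females was -0.43 (SE 0.133, FDR = 0.0648) for Pik3r1, -0.52 (SE 0.186, FDR = 0.109) for Tbc1d1 and -0.31 (SE 0.130, FDR = 0.185) for Irs1. For Inppl1 it was 0.17 (SE 0.0866, FDR = 0.284), and for Insr, Irs2, Akt1, Akt2 and Tbc1d4 its size was at most 0.18. Without male sham 4 and female sham 7, both Pik3r1 (-0.49, FDR = 0.00595) and Tbc1d1 (-0.47, FDR = 0.0293) passed. Without male sham 4 alone the values were -0.53 (FDR = 0.00406) and -0.63 (FDR = 0.0282). DESeq2 on all 24 libraries called 1 of 9, Pik3r1 (adjusted p = 0.0306), against 6.74% of all genes, and 0 of 9 between sham mice, against 3.51%. Among sham mice alone the difference was -0.38 for Pik3r1 (FDR = 0.336), -0.40 for Tbc1d1 (FDR = 0.485), -0.29 for Irs1 (FDR = 0.475) and 0.15 for Inppl1 (FDR = 0.583), and its size was at most 0.27 for the other members. These sham differences moved with single libraries. Pik3r1 passed when male sham 4 was left out (-0.59, FDR = 0.0452) and was -0.28 without female sham 7. Tbc1d1 was -0.068 (FDR = 0.906) without female sham 7 and -0.62 (FDR = 0.181) without male sham 4. Irs1 lay between -0.46 (without male sham 3) and -0.18 (without female sham 9), and Inppl1 between 0.094 (without female sham 8) and 0.25 (without male sham 4).

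Among the 9250 other genes with a mean of at least 5 CPM, the 2 whose log2 CPM followed each member most closely over the 24 libraries, after group means were removed, were found by Pearson's r. Akt2 had the closest companions, Eif3b (r = 0.93) and Dnajb12 (r = 0.93), and Inppl1 followed with Tmem8b (r = 0.92) and Nipsnap2 (r = 0.92). Irs2 varied with the phosphate transporter gene Slc20a1 (r = 0.90) and with Sash1 (r = 0.87), and Irs1 with Tead4 (r = 0.79) and Ppp1r27 (r = 0.75). Tbc1d1 had Cdkal1 (r = 0.86) and Sf3b1 (r = 0.82), which were 0.71 and 0.71 without male sham 4 and female sham 7. Pik3r1 had Fibin (r = 0.83) and Dhx30 (r = 0.80), Insr had Nrap (r = 0.84) and Samd4 (r = 0.83), Tbc1d4 had Btnl9 (r = 0.80) and Iba57 (r = 0.79), and Akt1 had Cdk4 (r = 0.79) and Ctdsp2 (r = 0.75). These are the highest of many correlations over libraries that share their normalization.

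Beyond the 9 members, 70 of 71 other insulin pathway genes could be tested, with Irs4 left out at 0 to 1 counts per library. In males 0 of 70 passed, against 0% of all genes, and in females 0 of 70, against 0.341%. At an unadjusted p under 0.05, 4 were higher and 4 lower in males, against 11% of all genes in either direction and 5.59% lower. In females 4 were higher and 10 lower, against 12.5% and 7.47%. Averaged over the sexes, 1 of 70 was higher (Pik3cd) and 3 were lower (Foxo1, Foxo3 and Lnpep), against 2.36% of all genes called. Of 6 transcripts known to respond to insulin (Hk2, Pdk4, Srebf1, Klf15, Txnip and Ppargc1a), Pdk4 and Klf15 were lower in that comparison, and Pdk4 was lower in females. The median log2 fold change of the 70 genes was 0.02, against -0.00886 over all genes.

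By role, 0 of 9 genes at the receptor level, 0 of 12 adaptors and 0 of 15 kinases and their brakes passed with SMC averaged over the sexes. Of 11 PI3K and lipid phosphatase genes, Pik3cd, a catalytic subunit best known from leukocytes, passed. It had medians of 17.4 CPM in male sham, 24.2 in male SMC, 15.99 in female sham and 19.4 in female SMC mice, and rose by a log2 fold change of 0.39 (SE 0.0838, FDR = 0.0166). It passed in each of the 24 fits that left out a library. The 5 macrophage genes checked summed to 35.1 to 69.8 CPM in male sham, 38.4 to 55.7 in male SMC, 23.7 to 87.7 in females with sham housing and 40.6 to 55.0 CPM with SMC, and their part in Pik3cd was not tested.

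Of 10 output genes, 2 fell with SMC, both FoxO transcription factors that AKT holds out of the nucleus. Foxo1 ranged from 38.4 to 211 CPM in male sham (median 49.1), 33.5 to 49.5 in male SMC (median 40.1), 56.7 to 256 in female sham (median 94.0) and 41.4 to 64.6 CPM in female SMC mice (median 54.6). The top of each sham range was male sham 4 and female sham 7. The other male sham mice reached at most 56.3 CPM, and the other female sham mice at most 207 CPM. Its log2 fold change was -1.08 (SE 0.262, FDR = 0.0283) averaged over the sexes, -0.86 (FDR = 0.381) in males and -1.30 (FDR = 0.112) in females. The values within a sex include male sham 4 or female sham 7 and are given only with them. Apart from male sham 4, male sham mice lay at 38.4 to 56.3 CPM, against 33.5 to 49.5 CPM in male SMC mice. Without the 2 libraries the averaged value was -0.60 (FDR = 0.0369). Foxo1 passed in 21 of 24 fits that left out a library, all but those without female sham 8 (the highest FDR, 0.0536), male SMC 18 or female SMC 19, and voomWithQualityWeights gave an FDR of 0.0525. Foxo3 ranged from 53.2 to 131 CPM in male sham (median 65.4), 49.97 to 59.6 in male SMC (median 52.3), 75.5 to 131 in female sham (median 99.6) and 65.9 to 77.3 CPM in female SMC mice (median 72.4). Male sham 4 and female sham 7 were again the highest of their groups, and the other male sham mice reached at most 69.9 CPM. Averaged over the sexes, Foxo3 fell by 0.49 on the log2 scale (SE 0.112, FDR = 0.0225), and by 0.33 (FDR = 0.0109) without the 2 libraries.

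Among 13 genes of glucose transporter traffic, Lnpep, the insulin-regulated aminopeptidase that travels with GLUT4 vesicles, fell. Its medians were 226 CPM in male sham, 192 in male SMC, 227 in female sham and 192 in female SMC mice, with a log2 fold change of -0.21 (SE 0.0540, FDR = 0.0362). It passed in 13 of the 24 fits that left out a library, and without male SMC 18 its FDR was 0.0637. Slc2a4, the gene of GLUT4 itself, had medians of 381 CPM in male sham, 367 in male SMC, 373 CPM in females with sham housing and 370 CPM in those with SMC. Its log2 fold change was -0.03 (95% interval -0.19 to 0.14, FDR = 0.943) in males and -0.11 (-0.28 to 0.05, FDR = 0.617) in females.

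Pdk4, the kinase that shuts off pyruvate dehydrogenase and that insulin represses, ranged from 1304 to 2453 CPM in male sham (median 1735), 827 to 1620 in male SMC (median 1254), 1614 to 2722 in female sham (median 1930) and 448 to 1530 CPM in female SMC mice (median 913). Each of the 6 female SMC mice lay below each female sham mouse. Pdk4 fell by 0.82 on the log2 scale averaged over the sexes (SE 0.176, FDR = 0.0166) and by 1.12 in females (SE 0.251, FDR = 0.0496), and was -0.51 in males (FDR = 0.456). The female call passed in 4 of 24 fits that left out a library and had an FDR of 0.0609 by voomWithQualityWeights, while the averaged one passed in 24 of 24. The difference of the Pdk4 response between the sexes was 0.61 (95% interval -0.11 to 1.33, FDR = 0.955). Klf15, a transcription factor of amino acid and lipid use, fell by 0.57 on the log2 scale (SE 0.153, FDR = 0.0480) averaged over the sexes. It passed in 8 of 24 such fits, and was -0.36 (FDR = 0.0659) without male sham 4 and female sham 7.

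**Figure D5:**
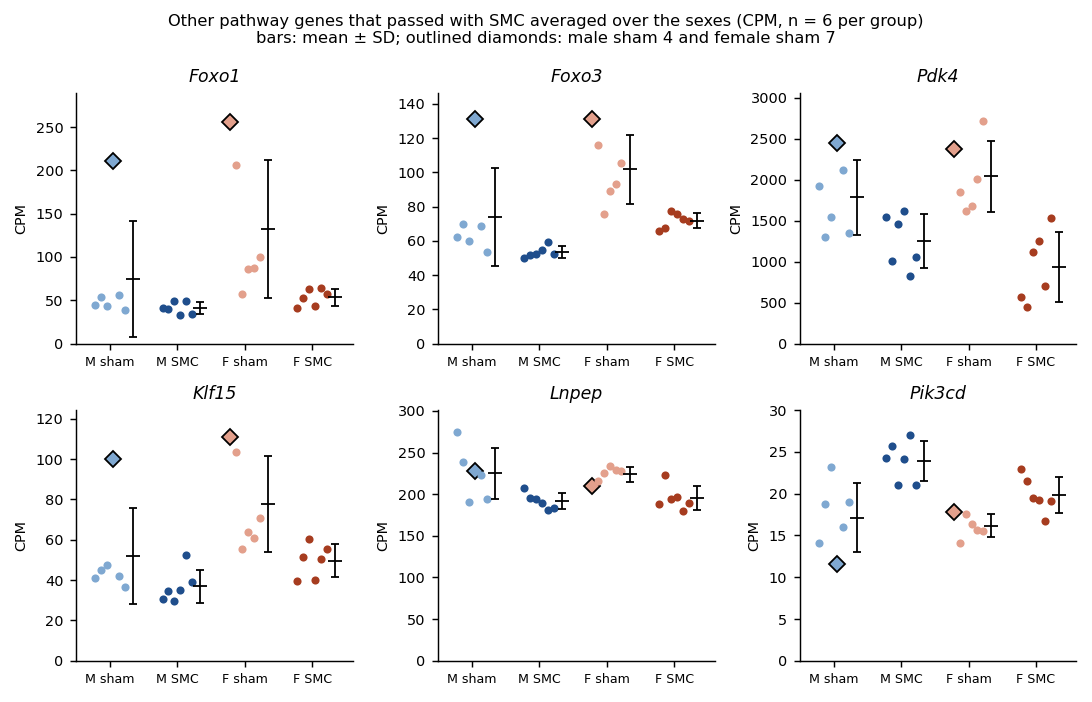
CPM (y axes, from 0) of the 6 other pathway and insulin-responsive genes that passed an FDR of 0.05 with SMC averaged over the sexes, in the 4 groups (x axes, M male, F female), 1 point per mouse, with mean ± SD beside the 6 points and outlined diamonds for male sham 4 and female sham 7. The diamonds are the highest sham points of their groups for Foxo1, Foxo3 and Klf15, and Pdk4 does not overlap between female sham and female SMC mice.

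Within each sex, the pathway genes with the smallest p-values are given as values, since none passed. In males those on the higher side were Pik3cd (log2 fold change 0.48, FDR = 0.117), Pik3r3 (0.27, FDR = 0.384) and the atypical protein kinase C gene Prkcz (0.52, FDR = 0.429). Those on the lower side in males were Lnpep (-0.23, FDR = 0.265) and the mTOR activator gene Rheb (-0.18, FDR = 0.265). Foxo3 followed (-0.47, FDR = 0.267), with male sham 4 (131 CPM) far above its other male sham mice. In females those on the higher side were Socs3, a feedback inhibitor of cytokine and insulin signalling (0.84, FDR = 0.204), the vesicle fusion gene Vamp2 (0.16, FDR = 0.233) and Pik3cd (0.30, FDR = 0.281). On the lower side they were Foxo1 (-1.30, FDR = 0.112), the ubiquitin ligase gene Cblb (-0.41, FDR = 0.115) and Foxo3 (-0.50, FDR = 0.147).

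Between the sexes, 3 of 70 pathway genes were higher and 1 was lower in sham males, against 1.97% of all genes called. Grb10, an adaptor that restrains the insulin receptor, had medians of 42.4 CPM in male sham and 70.6 CPM in female sham mice, without overlap, and a log2 difference of -0.76 (FDR = 2.73e-05). Cav3, the caveolin of muscle (0.35, FDR = 0.0338), Ptpn11, the phosphatase SHP2 (0.39, FDR = 0.0266), and Trib2, a pseudokinase that binds AKT (0.76, FDR = 0.00923), were higher in males. Cav3 passed in 17 and Ptpn11 in 21 of 24 fits that left out a library. In the comparison averaged over sham and SMC, Grb10 (-0.69), Cav3 (0.31), Ptpn11 (0.43) and Trib2 (0.65) had the same sign, and Pik3r3 (0.32, FDR = 0.0277, passing in 20 of 24 such fits) and Foxo3 (-0.44, FDR = 0.0200) also passed. Srebf1, a lipogenic factor that insulin induces, was higher in males by 0.54 (FDR = 0.00389).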

How the data were processed

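Total RNA of 24 gastrocnemius muscles was isolated, ribosomal RNA was removed and directional libraries were sequenced by the authors. The deposited values were whole-number raw counts per Ensembl gene, without normalization. The submitters' processing notes name cutadapt 1.16, STAR 2.7.9a, featureCounts 1.6, DESeq2 1.34.0 and build GRCm39. The annotation release and strand setting of the counting are not given in the sources used here. Genes antisense to Irs1 (Gm9747, 0 to 3 counts per library), Irs2 (9530052E02Rik, 6 to 27) and Inppl1 (Phox2a, 0 to 4, and Gm10602, 15 to 64) had few counts beside those members.

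Groups follow the Sex and treatment tags. The labels do not state that libraries came from separate mice, so p-values measure the spread between these libraries. Within groups, chi-square over its degrees of freedom was at least 10.3 in 60 pairs, and no library was a copy of another. Total counts per library (23026627 to 36880413) set the counting error, which the fit takes in together with the spread between mice.

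Genes kept by edgeR's filterByExpr were fitted with TMM factors, 1 mean per group and quasi-likelihood F tests over all 24 libraries (edgeR 4.0.16, R 4.3.3). The tests were two-sided, with Benjamini-Hochberg adjustment over the 16408 genes and a threshold of 0.05. Standard errors and 95% intervals came from the fit. In the averaged comparison each sex had equal weight. Log2 CPM had a prior count of 2. Exon lengths were the union of GENCODE M21 exons, and promoters came from RefSeq (GRCm38.p6), whose coordinates are not those of GRCm39. Ratios of paralogues were compared by exact two-sided permutation of 924 relabelings, which cannot give a p below 0.00216. Alternatives were DESeq2 1.42.0, its size factors within edgeR, a minimum of 10 counts per gene in each library, no filter, voomWithQualityWeights (limma 3.58.1), only the libraries compared, each library left out in turn, and the 2 libraries low in slow fibre genes left out. The fit was tested on simulated data.

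All 9 members are named in each comparison. From the pathway list, genes under the threshold, Slc2a4, Foxo1 and up to 3 with the smallest p per direction and sex are named, except 1 gene that is not reported here. In the sex comparisons, values are given for the 4 members with an unadjusted p under 0.1 in an averaged comparison, a choice made after their values were seen. The members and lists were chosen with earlier results of these data known.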

Additional observations from a re-analysis of the deposited data

Results flagged for a closer look

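In 48 groups of 6 mice (9 genes and 3 ratios in 4 groups), 4 held a library separated from the rest by more than Dixon's 95% critical value, and chance alone gives about 1 in 20 groups, or 2.4. Insr in male sham 4 had a log2 CPM of 7.70, against 7.22 to 7.39 in the other 5 mice. Inppl1 in the same library had a log2 CPM of 6.33, against 6.79 to 7.05. Akt1 in male SMC 17 had a log2 CPM of 5.67, against 5.37 to 5.42. The log2 ratio of Tbc1d1 to Tbc1d4 counts in female SMC 23 was 1.80, against 0.506 to 0.966.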

How the results depend on the processing

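Of 1192 recomputed log2 fold changes of the members, 1122 kept their direction and their side of the threshold, 55 changed sign and 15 newly passed, and no value that changed sign had passed. No paired analysis was made, because the labels give no pairing of libraries and the cage arrangement was not given in the sources used here. With DESeq2, 2 members were called with SMC averaged over the sexes and 1 in the averaged sex comparison, where voomWithQualityWeights and the fit without the 2 libraries low in slow fibre genes each called 2. Leaving out 1 library called 0 to 1 members with SMC averaged over the sexes, 0 to 1 between sham males and sham females (1 without male sham 4) and 0 to 2 in the averaged sex comparison (2 without male sham 4, and 1 without female sham 9 or female SMC 24).

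Sign changes were these, with the cause not tested. With voomWithQualityWeights, Insr became 0.048 and Akt1 0.027 in males, Irs2 0.0024 in females, Insr 0.013 and Irs2 0.113 averaged over the sexes, and the difference of the response 0.113 for Irs1 and 0.012 for Pik3r1. Without the 2 libraries, Insr became 0.020, Akt1 0.035 and Akt2 0.0032 in males, Insr 0.0031 and Akt2 0.016 in females, Insr 0.012 and Akt2 0.0097 averaged, and the difference of the response 0.029 for Irs1, 0.015 for Pik3r1 and -0.063 for Inppl1. In that fit the log2 ratio of Irs1 to Irs2 between sham males and sham females became 0.036, that of Akt1 to Akt2 -0.017, and that of Tbc1d1 to Tbc1d4 with SMC in females 0.072. With no filter, Insr in females became 0.0011.

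Leaving out 1 library at a time, ranges that crossed 0 were, in males, -0.070 to 0.020 for Insr, -0.064 to 0.21 for Irs2, -0.074 to 0.035 for Akt1 and -0.16 to 0.0032 for Akt2. In females they were -0.045 to 0.036 for Insr, -0.32 to 0.052 for Irs2, -0.10 to 0.016 for Akt2 and -0.17 to 0.045 for Tbc1d4. Averaged over the sexes they were -0.042 to 0.0067 for Insr and -0.14 to 0.047 for Irs2. For the difference of the response they were -0.15 to 0.14 for Irs1, -0.20 to 0.11 for Pik3r1 and -0.061 to 0.099 for Inppl1. The ratio of Akt1 to Akt2 between sham males and sham females ranged from -0.059 to 0.13, and that of Tbc1d1 to Tbc1d4 with SMC in females from -0.43 to 0.072.

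Counts over all genes moved more. DESeq2 called 133 genes in males (edgeR 0), 268 in females (edgeR 56), 778 averaged (edgeR 388), 1 for the difference (edgeR 0) and 575 between sham mice (edgeR 324), and voomWithQualityWeights called 93 in males, 16 in females and 1420 in the averaged sex comparison (edgeR 809). The fit without the 2 libraries called 155 in females, 511 between sham mice and 1268 in the averaged sex comparison. No filter gave 189 averaged, DESeq2 size factors 37 in females, the 12 female libraries alone 14 and the 12 sham libraries alone 58. Leaving out 1 library gave 0 to 78 in males (78 without male sham 5), 0 to 147 in females (147 without female sham 9), 236 to 501 averaged and 187 to 487 between sham mice. With 6 mice per group, members with wide intervals, such as Irs2 and Tbc1d1, could hold changes that these data cannot show.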
